A study of Oryza sativa with 6 samples.

Results

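miR1432 is a rice microRNA whose hairpin precursor gives 2 annotated mature arms, osa-miR1432-5p and osa-miR1432-3p (miR1432-5p and miR1432-3p for short). These were taken by name from the 464 known rice miRNA entries among the 1898 entries of the expression table, and they were chosen by the read counts of the uninfested plants, which were higher in the resistant line (P15-0) than in the susceptible line (PC-0). That difference is therefore given below as a description without a test.

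The study sequenced small RNAs of the susceptible recipient line PC (indica rice 9311) and of P15, an introgression line in the same background that carries BPH15, a resistance gene from the wild rice Oryza officinalis. Plants without insects (0 h) and plants infested by the brown planthopper (BPH) for 6 h or 48 h gave 6 libraries, written with the line and the hours, from PC-0 to P15-48. The labels give 3-week-old plants and leaf sheath, whereas the methods of the paper describe younger seedlings and stems, many plants pooled per sample and 1 common end of the treatments. There was 1 library per condition and 1 line of each kind, so differences between libraries were not checked against replicates, and an effect of BPH15 and of anything else carried by the introgression line cannot be told apart.

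Plant miRNAs are cut from hairpin precursors as a short duplex. The guide strand is loaded into an Argonaute protein and leads it to messenger RNAs with a nearly complementary site, and the other strand is mostly degraded. In rice, miR1432 is known to target an EF-hand calcium-binding protein, of the group that binds calcium ions in signalling, and the acyl-CoA thioesterase OsACOT, which acts in grain filling. Calcium influx is among the early events when a plant senses an insect. Target messenger RNAs were not measured in these libraries.

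The sequences are shown because they tell which reads belong to miR1432. They stand 5′ to 3′ as DNA letters, as deposited, and capitals mark bases 2 to 8 of the arms. In MIR1432-x, an entry that matches miR1432 of another plant, the capital marks the only base that differs from miR1432-5p.
osa-miR1432-5p: aTCAGGAGagatgacaccgac
osa-miR1432-3p: cAGGTGTCatctcccctgaac
MIR1432-x: atcaggagagatgacacAgac

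Both arms are 21 nt long. miR1432-5p begins with A, as 31 of the 176 distinct known sequences of 21 nt do (17.6%), while 101 of them begin with U. Laid against each other with ends offset by 1 base, 16 of 20 facing bases of the arms can form Watson-Crick pairs. MIR1432-x differs from miR1432-5p by C18A, counted from 1 at the 5′ end with the base of miR1432-5p first. No other known entry shared bases 2 to 8 with either arm (0 entries), and MIR1432-x was the 1 entry matched to other plants that shared them with miR1432-5p. Reads that match both entries could not be followed from the deposited table. A search of all entries for close sequences also found MIR391-x, which was noticed after its value was seen and which had 1 read in all, in P15-0.

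Nearly all reads of the hairpin came from the 5p arm. miR1432-5p had 1059 reads over the 6 libraries and miR1432-3p had 7. The 5p arm took 97.2% of the reads of both arms in P15-48 (exact Clopper-Pearson 95% interval 92.9 to 99.2), the lowest share, and 100% in PC-0, PC-6 and P15-6. Over all libraries its share was 99.3%, and of the 64 known hairpins with reads from both annotated arms and at least 100 reads in sum, 17 had a larger share on 1 arm, with a median of 97.8%. At 6 h and at 48 h the share of the arms did not differ detectably between the lines (Fisher's exact test on the reads, adjusted p = 1.0 and 0.331 over 2 tests), and at 48 h that test rested on 4 reads of the 3p arm in P15-48 and 1 in PC-48.

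miR1432-3p, the presumed passenger strand, had 2 reads in P15-0, 4 in P15-48 and 1 in PC-48. It had 0 reads in PC-0, PC-6 and P15-6, where a count of 0 allows up to 2.23, 2.38 and 1.82 TPM, the reads of an entry scaled to a common library total. At 48 h its ratio between P15 and PC was 4.76 with a 95% counting interval of 0.471 to 234, which shows no detectable difference at this depth. Nothing further can be read from 7 reads.

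Before BPH feeding, osa-miR1432-5p was read 336 times in the P15 library and 141 times in the PC library, or 236 against 105 TPM. The ratio was 2.25 (95% counting interval 1.84 to 2.75). This is the difference by which miR1432 was chosen. By the thresholds of the study (a 2-fold difference or more, with an unadjusted P below 0.05), 4.6% of all known miRNAs with reads in the pair were higher in P15-0 and 0.69% were lower. TPM here is the read count over the library total, which ranged from 1078716 to 1644065 reads with a median of 1313603.5, and 1 read was worth 0.608 TPM in P15-6 to 0.927 TPM in P15-48. Intervals and limits from counts cover counting error only.

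**Figure D1:**
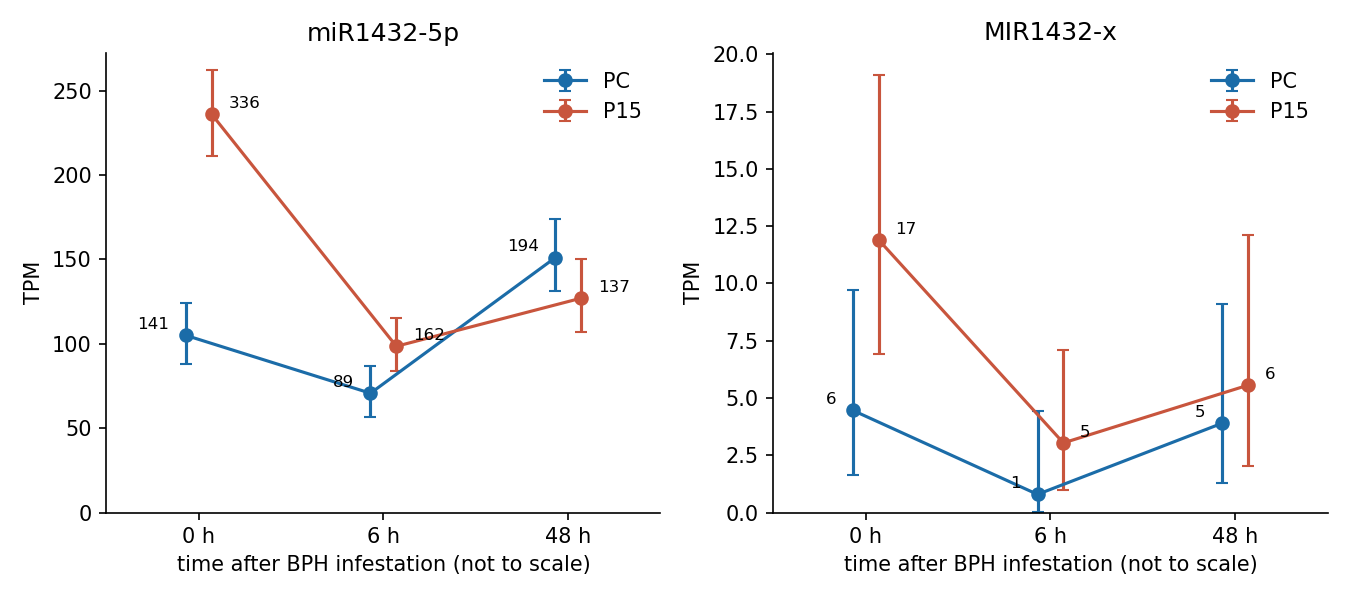
TPM of miR1432-5p (left) and of MIR1432-x (right) by hours after BPH infestation, which are not drawn to scale, in PC (blue) and P15 (red). Points are single libraries with their read counts beside them and bars are exact 95% Poisson intervals. miR1432-5p was highest in P15-0 at 236 TPM and lowest in PC-6 at 70.7 TPM. Its order between the lines was reversed at 48 h, where the difference in TPM did not exceed counting error.

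At 6 h, miR1432-5p stood at 98.5 TPM (162 reads) in P15 and 70.7 TPM (89 reads) in PC. At 48 h it stood at 127 TPM (137 reads) in P15 and 151 TPM (194 reads) in PC. The line with more miR1432-5p was P15 at 0 h and 6 h and PC at 48 h. From the highest to the lowest the libraries ran P15-0, PC-48, P15-48, PC-0, P15-6 and PC-6. P15-0 was 1.56 (95% counting interval 1.30 to 1.87) times PC-48. The next 3 steps, PC-48 over P15-48 at 1.19 (0.952 to 1.49), P15-48 over PC-0 at 1.21 (0.950 to 1.54) and PC-0 over P15-6 at 1.06 (0.844 to 1.34), did not exceed counting error with the library totals. The last step, P15-6 over PC-6, did. With TMM, a scaling that sets the bulk of the miRNAs equal between libraries, P15-6 moved above PC-0 and P15-48, with PC-0 over P15-6 at 0.762 (0.604 to 0.961), and PC-48 over P15-48 was 1.31 (1.05 to 1.65), beyond counting error.

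The comparisons of the lines after infestation did not enter the choice of miR1432. In P15-6/PC-6 the ratio of miR1432-5p was 1.39 (1.07 to 1.83 by counting error) and the log2 fold change 0.48 in edgeR's exact test (Benjamini-Hochberg adjusted p = 0.0377 over all known miRNAs), which compares these 2 libraries and not the lines. With an assumed biological coefficient of variation of 0.2 the unadjusted p was 0.303. The change was short of the 2-fold threshold, which 2.1% of the known miRNAs passed upward and 7.23% downward. Other scalings turned this split of 9 up and 31 down into 12 and 11 with TMM and 30 and 9 with median-of-ratios, the scaling of DESeq2. In P15-48/PC-48 the ratio was 0.840 (0.670 to 1.05) with a log2 fold change of -0.25 (adjusted p = 0.355), and 5.4% and 1.17% of the known miRNAs passed the thresholds upward and downward (23 and 5, or 16 and 7 with TMM). miR1432-5p thus passed them in neither comparison.

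The scaling mattered for the size of the 6 h ratio. TMM gave 1.66 (1.27 to 2.17), median-of-ratios 1.80 (1.38 to 2.36) and totals set to the clean reads, which are all reads left after quality filtering, 1.82 (1.40 to 2.39). The median log2 fold change of the 234 known miRNAs that reached 20 reads on either side was -0.32 under library totals and -0.07 under TMM. Against that median, miR1432-5p stood higher by 0.79 on the log2 scale, and 39 of the 234 stood above it. At 48 h the ratio was 0.761 (0.607 to 0.952) with TMM and 0.736 (0.587 to 0.921) with clean reads, where edgeR's exact test gave unadjusted p of 0.0178 and 0.0069, and 0.856 (0.682 to 1.07) with median-of-ratios. There miR1432-5p lay 0.30 below a median of 0.05 (a difference of -0.30), with 158 of 218 above it. At 0 h, given as a description, it lay 1.07 above a median of 0.10, with 11 of 248 above it. The order of the lines at each time was the same under the 4 scalings.

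Over the 4 libraries of infested plants together, no constant difference between the lines was found for miR1432-5p. The effect of the line was 0.10 (standard error 0.40) on the log2 scale, with an adjusted p of 0.972 in edgeR's quasi-likelihood test of an additive model of time and line, which leaves 1 residual degree of freedom. The same fit called 9 of 270 known miRNAs (3.33%), or 3 of 216 with identical entries taken once, so it could make calls in this design. With such a standard error, however, a 2-fold difference in miR1432-5p would have been hard to see. The ratio between the lines itself changed. From 6 h to 48 h the log2 ratio of P15 over PC moved by -0.73 (95% counting interval -1.22 to -0.24), and by -1.08 to -1.31 under the other 3 scalings. This interval covers counting error only, and the spread between plants was not measured.

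**Figure D2:**
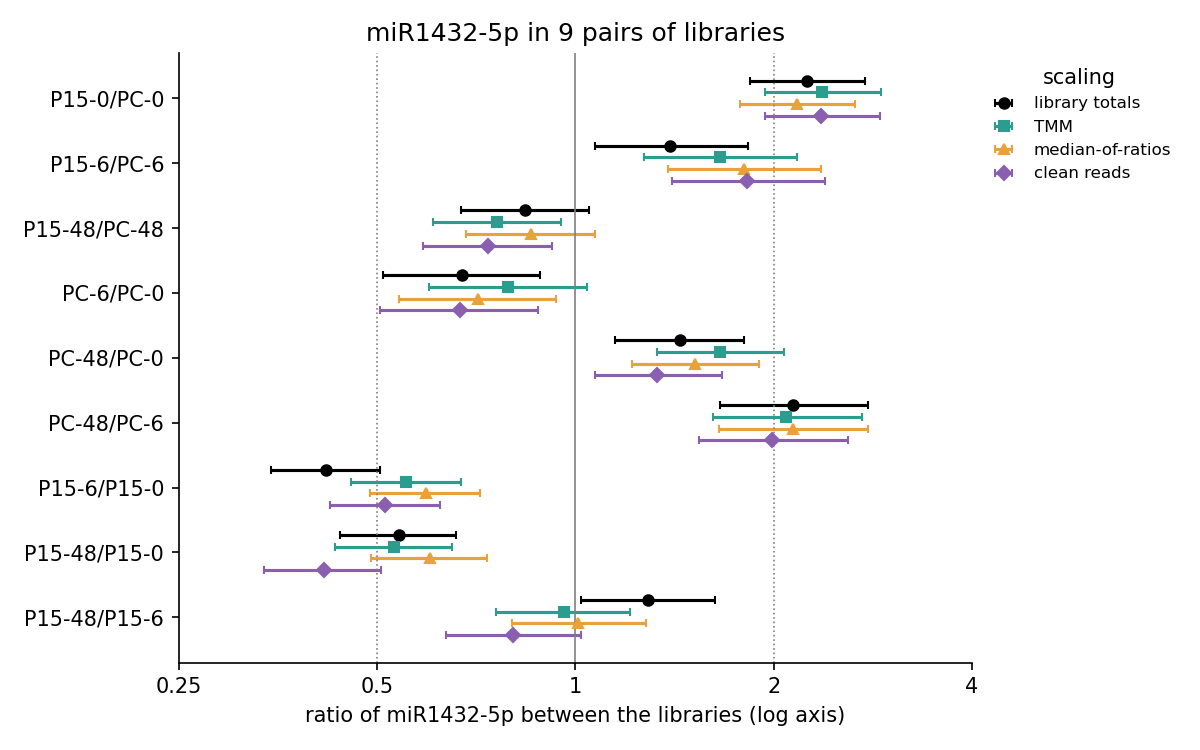
Ratio of miR1432-5p between the libraries of 9 pairs on a log axis, with exact 95% counting intervals, under 4 scalings (black, library totals). The solid line marks a ratio of 1 and the dotted lines 0.5 and 2. P15-48/PC-48 lay below 1 under each scaling, and P15-48/P15-6 changed its side of 1 between scalings.

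Between 6 h and 48 h of feeding, miR1432-5p differed between the PC libraries. It stood at 70.7 TPM in PC-6 and 151 TPM in PC-48, a ratio of 2.14 (1.66 to 2.78). This passed the study's thresholds with a log2 fold change of 1.10 in edgeR's exact test. That test compares these single libraries and not the times, and it does not cover the spread between plants. Among the known miRNAs 3.44% passed them upward and 3.67% downward (15 and 16, or 9 and 18 with totals set to the clean reads), and 13 of the 222 with at least 20 reads had a larger log2 fold change. This was the only comparison outside the 0 h libraries in which miR1432-5p passed the thresholds, and it stood at the edge of them. The log2 fold change was 0.99 when the clean reads served as totals, which ends the call. The unadjusted p of 1.2e-09 became 0.0168 with an assumed biological coefficient of variation of 0.2 and 0.21 with 0.4.

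In P15 the change over the same interval was smaller. The level went from 98.5 TPM in P15-6 to 127 TPM in P15-48, a ratio of 1.29 (1.02 to 1.63). The log2 fold change of 0.37 (edgeR exact test, adjusted p = 0.0996) was 0.05 above the median of 0.31 over the 234 known miRNAs that reached 20 reads. Of all known miRNAs 10.9% passed the thresholds upward and 1.18% downward (46 and 5, against 10 and 18 with TMM and 4 and 23 with clean reads). The ratio was 0.960 (0.759 to 1.21) with TMM and 0.805 (0.636 to 1.02) with clean reads, so no direction can be given for P15 between 6 h and 48 h.

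**Figure D3:**
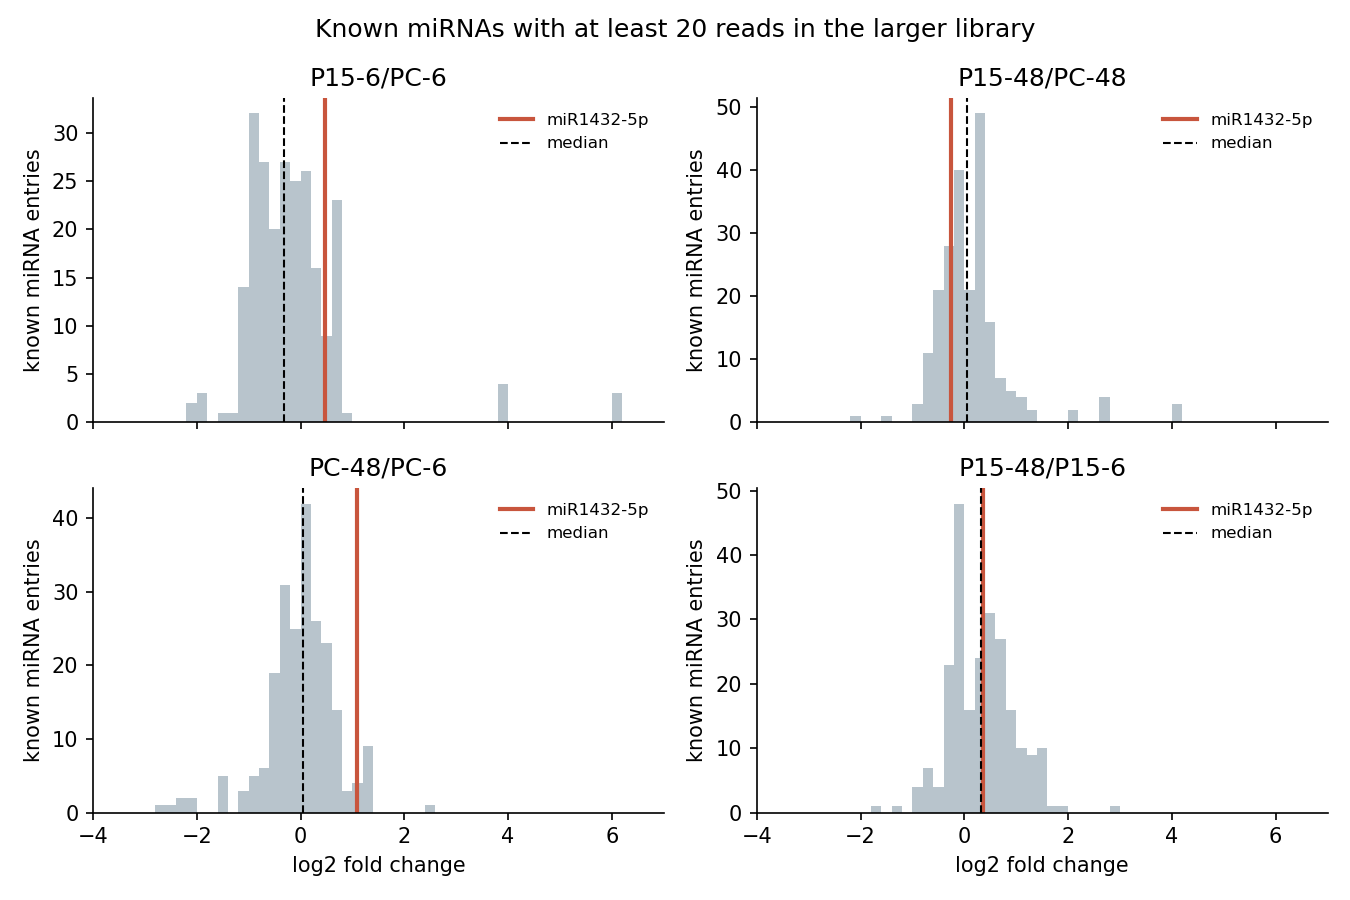
Number of known miRNA entries by log2 fold change in the 4 comparisons without a 0 h library, for entries that reached 20 reads on either side. The red line marks miR1432-5p and the dashed line the median of the entries. miR1432-5p lay 0.79 above the median in P15-6/PC-6, 1.05 above it in PC-48/PC-6 and 0.05 above it in P15-48/P15-6.

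The comparisons with the 0 h libraries share those libraries with the choice of miR1432 and are given without a test. From 141 reads in PC-0, miR1432-5p went to 0.674 (95% counting interval 0.511 to 0.885) times its level in PC-6 and to 1.44 (1.15 to 1.80) times in PC-48. From 336 reads in P15-0 it went to 0.418 (0.345 to 0.506) times in P15-6 and to 0.539 (0.439 to 0.659) times in P15-48. Both lines were thus below their 0 h level at 6 h, and at 48 h PC was above and P15 below it. Of these changes, only that in P15-6/P15-0 reached 2-fold. There 13.9% of the known miRNAs passed the study's thresholds downward and 0% upward. The paper lists miR1432-5p among the miRNAs that it found differentially expressed after feeding in P15 and not in PC. In the other 3 comparisons, 0.467% passed upward and 7.24% downward in PC-6/PC-0, 1.38% and 9.45% in PC-48/PC-0, and 2.1% and 4.67% in P15-48/P15-0. With TMM the ratio in P15-6/P15-0 was 0.553 (0.456 to 0.670), and the median log2 fold change of 243 known miRNAs that reached 20 reads moved from -0.51 to -0.11.

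The change from 0 h averaged over the lines is not the difference by which miR1432 was chosen, but it shares the 0 h libraries with that choice. It was -0.65 (standard error 0.34) on the log2 scale at 6 h and -0.01 (standard error 0.34) at 48 h in edgeR's additive fit of all 6 libraries, and is given as a description without a test. That fit called 0.356% of 281 known miRNAs at 6 h and 2.14% at 48 h. The 6 h value rested on the 0 h libraries, being -0.04 without P15-0 and -1.15 without PC-0, and the 48 h value was 0.49 without P15-0 and 0.57 without P15-48, so no common direction can be given. At 48 h it was -0.61 without PC-0 and -0.66 without PC-48.

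MIR1432-x was read at a far lower level. It had 6, 1 and 5 reads in PC and 17, 5 and 6 reads in P15 at 0, 6 and 48 h. Its highest value was in P15-0 at 11.9 TPM and its lowest in PC-6 at 0.794 TPM, the same libraries as for miR1432-5p. At 48 h it did not show the order of the lines seen for miR1432-5p, since P15-48/PC-48 was 1.43 (0.363 to 5.91), an interval that also holds the 0.840 of miR1432-5p. Its reads made up 1.12% (PC-6) to 5.06% (P15-0) of those of miR1432-5p. Over all libraries this was 3.78%. It stands against a median of 2.87% over 16 pairs of an other-plant entry and a known sequence that differ by 1 base. Of these 16 pairs, 5 had a larger share. They are not all the pairs that differ by 1 base, since MIR391-x is not among them. Adding its reads to miR1432-5p gave ratios of 1.42 (1.09 to 1.86) in P15-6/PC-6 and 0.855 (0.685 to 1.07) in P15-48/PC-48. Whether these reads are a separate sequence or altered reads of miR1432-5p was not tested.

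miR1432-5p lay in the upper part of the known sequences by level. It ranked between 57 (P15-0) and 80 (PC-6) among the 337 distinct known sequences of a library, and 67 by its mean of 131 TPM (SD 57.9 over the 6 libraries, which are different conditions). The sequences next to it differed in how much they varied. miR1865-3p just above it had a highest level 1.5 times its lowest, and miR166h-5p, of the family whose guide strands target HD-ZIP III factors, 1.63 times, against 3.33 times for miR1432-5p. The highest level of miR1432-5p was that of P15-0, for whose reads it was chosen, so its range is partly set by the choice. miR156g-3p and miR396c-3p, both strands of other families in the same range of levels, had 3.84 and 2.99 times and were also highest in P15-0. miR171e-5p, at 3.34 times, was highest in PC-0, and miR166d-5p, at 2.04 times, in P15-48. Over the 4 libraries of infested plants the SD of log2(TPM + 1) was 0.47 for miR1432-5p, against a median of 0.36 over 140 distinct sequences with a mean of at least 20 reads, of which 42 varied more.

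The known sequence most like miR1432-5p in its course was miR535-5p, of a family that targets SPL transcription factors. Pearson's r of log2(TPM + 1) was 0.98 over the 6 libraries, the highest of 139 sequences compared. miR535-5p had 128, 102 and 162 TPM in PC and 215, 114 and 160 TPM in P15 at 0, 6 and 48 h. Like miR1432-5p it was highest in P15-0 and lowest in PC-6, but its ratio at 0 h was 1.68. Next came miR444b.1, which has the same sequence as miR444c.1 and belongs to a family that targets MADS-box factors, with r = 0.93. With TMM-scaled values its r was 0.71, the lowest of the 5 most similar sequences, and its Spearman's rho was 0.77. miR444b.1 ranged from 1650 TPM in PC-6 to 2420 TPM in P15-0, a narrower span than that of miR1432-5p. miR535-3p (r = 0.86), miR6249a (0.79) and miR2118o (0.76) followed. The 2 sequences with the highest r under library totals are shown with bases 2 to 8 in capitals, since neither shares these bases with miR1432-5p.
miR535-5p: tGACAACGagagagagcacgc
miR444b.1: tGTTGTCTcaagcttgctgcc

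**Figure D4:**
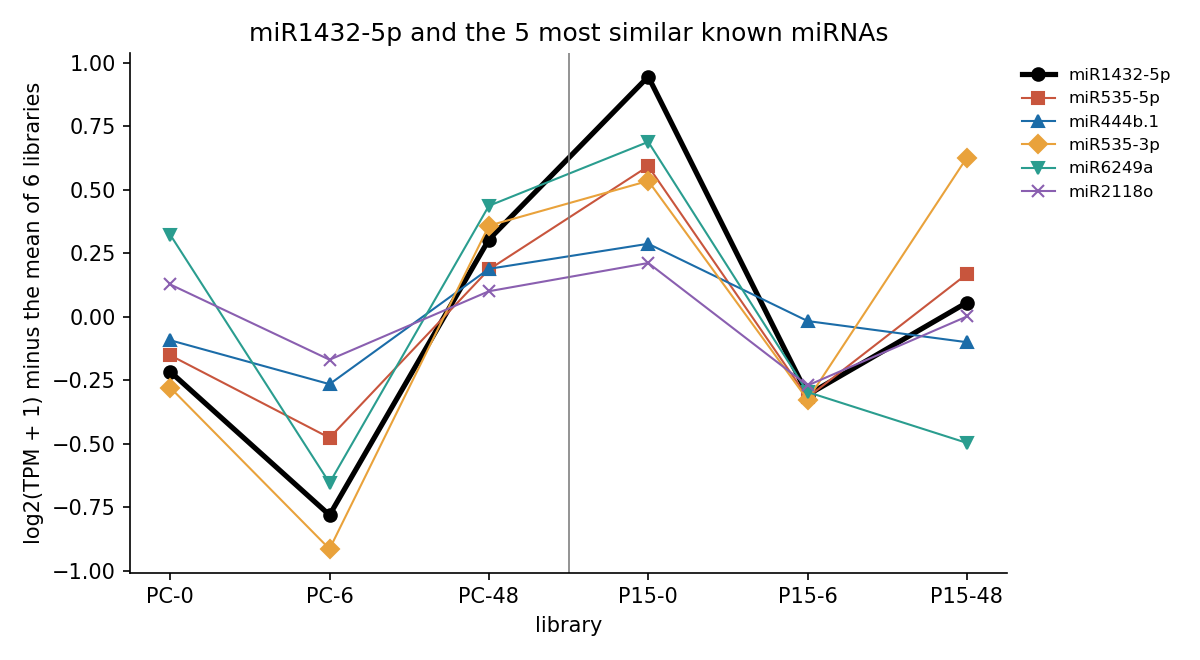
Log2(TPM + 1) of miR1432-5p (black) and of the 5 known miRNAs with the highest Pearson r to it, each minus its mean over the 6 libraries. The vertical line separates PC from P15. The curves of miR1432-5p and miR535-5p (r = 0.98) both peak in P15-0 and are lowest in PC-6, and miR535-3p and miR6249a leave them in P15-48.

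The 6 points behind such an r share their library totals, and all of these sequences were read from the same libraries. P15-0 and PC-0, by whose difference miR1432 was chosen, are among these points, so a likeness in course partly restates that choice. A measure outside the known miRNAs also moved with miR1432-5p. The 13 other-plant entries of 18 or 19 nt that end in CCA, as mature tRNAs do, summed to 2150, 1600 and 2190 TPM in PC and 3150, 2130 and 1970 TPM in P15 at 0, 6 and 48 h, with r = 0.92 to miR1432-5p over the 6 libraries, which 2 known sequences exceeded. Their ratio of P15 over PC was 1.46 at 0 h, 1.33 at 6 h and 0.900 at 48 h, beside 2.25, 1.39 and 0.840 for miR1432-5p. The part of such reads in the result was not tested. The 15 entries of miR2118 and miR2275, which trigger phased small RNAs in panicles, summed to 139 to 172 TPM in the 6 libraries. In each library 2 or 3 of the 15 were at 0 reads. As a sum they did not follow the course of miR1432-5p, being lowest in P15-6. miR2118o, which is among them, had by itself r = 0.76 to miR1432-5p. miR166a-3p alone took 49.5% (P15-0) to 56.5% (P15-6) of the library totals, so that TPM of every other miRNA depends on it.

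The other miRNAs linked to calcium were those of miR444, which targets MADS-box factors and for which the study names a calmodulin-binding protein as a target of miR444d. With miR1432 the list held 14 entries with 9 distinct sequences. Between the lines, 0 of 13 passed the thresholds at 6 h and 0 of 14 at 48 h, with median log2 fold changes of -0.62 and -0.21 against -0.37 and 0.16 over all known miRNAs. In PC-48/PC-6, miR1432-5p was the only one of 14 that passed (7.14%, against 3.44% of all known miRNAs, with a median of 0.52 against -0.02). In P15-48/P15-6 it was the other way round, since 6 of 14 passed upward (42.9%, against 10.9% of all known miRNAs), all of miR444, and miR1432-5p did not. These 6 hold 3 distinct sequences, and miR444e, with 343 reads in P15-6 and 486 in P15-48, had a ratio of 2.16 (95% counting interval 1.88 to 2.49). In that comparison 1 of the 14 passed with TMM and 0 with clean reads. The fit for the line at 6 and 48 h called 0 of the 11 entries tested, and 9 known miRNAs in all. Of the 11 entries, 0 had an unadjusted p under 0.05 in edgeR's main fit for the line, and DESeq2 also called 0. The fits over time, which for miR1432-5p are given without a test, called 0 entries of miR444. They called 1 known miRNA at 6 h and 6 at 48 h in all.

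Families known for effects on rice grain or panicles, to which miR1432 belongs through OsACOT, gave 65 entries with 39 distinct sequences. In PC-48/PC-6, 3 of 65 passed the thresholds upward and 1 downward (4.62% and 1.54%, against 3.44% and 3.67% of all known miRNAs), and with clean reads as totals 1 passed upward. Beside miR1432-5p these were miR398b, which targets copper/zinc superoxide dismutases and had a ratio of 5.89 (95% counting interval 3.45 to 10.7), miR408-5p at 2.45 (1.03 to 6.44) and, downward, miR396c-3p at 0.456 (0.349 to 0.592). In P15-6/PC-6, where miR1432-5p was higher in P15, 0 of 63 passed upward and 5 downward (7.94%, near the 7.23% of all known miRNAs), against 3 upward and 3 downward with median-of-ratios. Of the 5, 4 were 3p strands of miR167, whose 5p strands target auxin response factors. In P15-48/PC-48, 1 of 65 passed upward and 2 downward (1.54% and 3.08%, against 5.4% and 1.17% of all known miRNAs).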

How the data were processed

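Small RNAs of 6 rice libraries (PC and P15 at 0, 6 and 48 h) were analysed, grouped by the sample titles. The authors removed low-quality reads, other RNA classes and tags on exons, introns or repeats and matched the rest to miRBase. The aligner is not given in the sources used here. They deposited a read count and a TPM signal per entry and library. TPM is the count over a library total (computed back to within 1.23e-04 percent), and 0 is written as 0.01. These totals are 7.85% to 12.6% of the clean reads in the paper. The table held 0 columns of other samples.

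Pairs were compared over all known miRNAs with edgeR 4.0.16 in R 4.3.3 (exactTest, dispersion 0, prior count 0.125) at the thresholds of the paper. Additive fits used glmQLFit with TMM and filterByExpr, called at a Benjamini-Hochberg adjusted p under 0.05, and for miR1432 the fit over time is given without a test. DESeq2 1.42.0 was an alternative. Intervals, Fisher tests and r came from scipy 1.17.1 (numpy 2.4.6, pandas 2.3.3, Python 3.11.15). The similarity used 1 entry per sequence with a mean of at least 20 reads. Only the test of the P15-6/PC-6 pair and the fit for the line were tried on simulated counts. For the line fit these had a lower dispersion than the 0.0544 estimated from the data. miRNAs named are both arms, MIR1432-x and any entry sharing bases 2 to 8, the 5 most similar sequences, 3 neighbours in mean TPM on each side, and called members of the lists. miR2118 and miR2275, miR166a-3p, MIR391-x and miR444e were named beside them. Members and lists were chosen with earlier results of these data known. Alternatives were 3 other scalings, dispersions, filters, identical entries taken once and leaving out libraries.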

Additional observations from a re-analysis of the deposited data

Results flagged for a closer look

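At 48 h the libraries lay on opposite sides of the 0 h level in the lines. miR1432-5p was 1.44 times its 0 h level in PC and 0.539 times in P15, and this difference was not tested, since it contains the 0 h libraries by which miR1432 was chosen.

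From 6 h to 48 h the log2 ratio of P15 over PC moved by -0.73, with a counting interval that leaves out 0. Only counting error was tested, and the spread between plants is not covered.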

How the results depend on the processing

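Alternatives changed few values for miR1432-5p. In PC-48/PC-6 the log2 fold change of 1.10 lost its call with the clean reads as totals (0.99) and at a biological coefficient of variation of 0.4 (1.10). In P15-6/P15-0 the value of -1.26 fell short of the thresholds with TMM (-0.85), median-of-ratios (-0.75), the clean reads (-0.96) and a coefficient of 0.4 (-1.26). P15-48/P15-0 passed them with the clean reads (-1.27). P15-48/P15-6 changed direction with TMM (-0.06) and the clean reads (-0.31). In the fits over time, leaving out 1 library at a time gave -1.15 to -0.04 at 6 h and -0.66 to 0.57 at 48 h, with 0.49 without P15-0 and 0.57 without P15-48, all given without a test. The line effect at 6 and 48 h lay between 0.10 and 0.28 with 4 libraries, and with all 6, which include the 0 h pair, it was 0.53. Its 9 calls became 3 with identical entries once and 15 with all 6 libraries. Of the 5 most similar sequences, 3 remained among the first 5 with Spearman's rho, 2 with a mean of at least 100 reads and 3 with no minimum. No paired analysis was possible because each condition has 1 library, so no replicate number could serve as a block. The fit for the line compares the lines within each time. The scalings of P15-0/PC-0 and the addition of MIR1432-x were chosen after seeing the data. The cause of these shifts was not tested. Depth limits miR1432-3p and MIR1432-x, with 7 and 40 reads in all.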
